A study of Mus musculus with 6 samples.

Results

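Small leucine-rich proteoglycans were measured in the auditory nerve of young and old mice. The family was taken as 10 genes chosen by name (Dcn, Bgn, Aspn, Lum, Fmod, Prelp, Kera, Omd, Ogn and Chad), and 9 of them had a row among the 17607 genes of the expression table. Kera was not analysed here because it had no row. All 9 passed the filter on low values and entered the test with 15882 genes in all. The nerve came from the cochleas of mice of the inbred CBA/CaJ strain, which keeps good hearing into adult life, with 3 young animals aged 2 months and 3 old animals aged 2.5 years. Each library held the pooled nerve tissue of both cochleas of 1 mouse, so the replicates were separate animals. The labels name no transgene, allele or treatment, and age is the only difference they give between the groups. Values are read counts divided by 1 size factor per library (normalised read counts).

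These proteins have a short core built of leucine-rich repeats, most often with chondroitin, dermatan or keratan sulfate chains attached, and they are secreted into the extracellular matrix. They bind collagen and steer how fibrils form, space and crosslink, and several bind growth factors or innate immune receptors. In peripheral nerve they are made mainly by the fibroblasts and sheath cells around and between the fibres. Decorin, biglycan and asporin form class I, the keratan sulfate type (lumican, fibromodulin, prolargin, keratocan and osteomodulin) class II, osteoglycin belongs to class III, and chondroadherin to a class without the usual gene structure.

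Of the 9 members 1 passed the test, Ogn, which rose in old nerves, and none fell (limma, adjusted p under 0.05 over all genes). That is 11.1% of the members, where 34.6% of all 15882 genes passed, 15.9% higher and 18.7% lower in old nerves. The median log2 fold change of the members was 0.01, with 5 above 0 and 4 below, and the median over all tested genes was -0.000797. Among the other members Omd, which was higher, and Chad, which was lower, came nearest to the threshold. In bulk tissue fewer cells of a type and less RNA per cell cannot be told apart. Old and young libraries did not overlap in 1 of the 9 members, against 51.8% of all tested genes. Libraries held 34587979 to 40841478 recovered reads. The neuronal marker Snap25, a synaptic protein gene, was abundant in each library (62570.0 to 107390.0). Of 10 neuron markers 4 fell with age (Nefl, Nefm, Rbfox3 and Elavl3) and all 10 were below 0, with a median log2 fold change of -0.45. Nefl passed without old 3 but with no other single library left out (limma adjusted p = 0.0650 to 0.107). Without both young 1 and old 2, 0 of the 10 were called lower, against 5.97% of all genes.

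**Figure D1:**
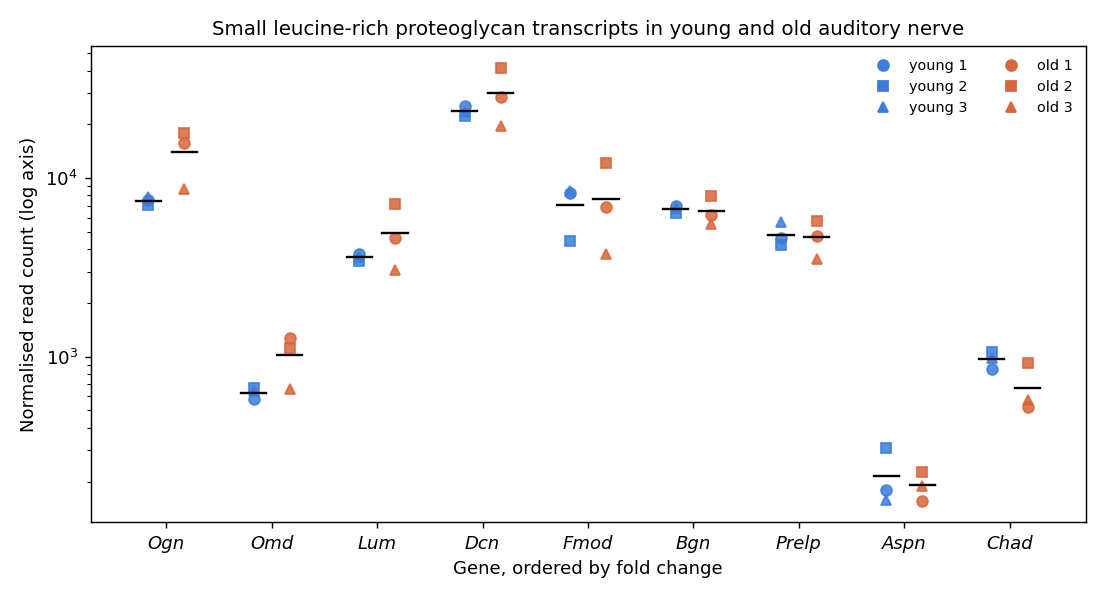
Normalised read count (log axis) of the 9 measured members in each library, ordered by fold change. Blue points are young and orange points old libraries, the point shape gives the replicate number and black bars are group means. Ogn is the 1 gene in which all 3 old libraries, from 8699.6 to 17804, lie above all 3 young libraries, and the old points spread more widely than the young ones by relative SD in every gene except Aspn.

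Levels were compared between members per kilobase of the longest protein-coding transcript. Dcn stood first in both groups, at 13464 ± 858 per kb in young and 16979 ± 6320.2 in old nerves (SD, n = 3), and its range did not overlap that of the next gene in either group. Over the 6 libraries its mean lay at the 99.6th percentile of 14896 tested genes with a known length. Ogn came next at 2917 ± 161 and 5492 ± 1863 per kb. Its range overlapped that of Bgn (2783 ± 135 and 2707 ± 516 per kb) in young nerves but not in old nerves. Fmod, Lum and Prelp followed in that order, with neighbours overlapping in both groups. Chad, Omd and Aspn were the lowest. Chad stood above Omd in young nerves without overlap (576 ± 64.6 against 280.0 ± 21.1 per kb), and in old nerves the ranges overlapped and the means were in the other order (399 ± 129 for Chad and 452 ± 142 for Omd). Aspn was last in both groups (92.4 ± 35.1 and 82.0 ± 15.1 per kb). The 9 genes together took 0.121% to 0.259% of all recovered reads, the lowest share in old 3 and the highest in old 2.

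Among the class I genes, Dcn encodes decorin, which coats collagen fibrils, limits their sideways fusion and binds TGF-beta. Dcn counts in replicates 1, 2 and 3 were 25292, 22309 and 23406 at the young age and 28425, 41603 and 19519 at the old age. The young libraries lay close together, and the old ones lay on both sides of them. The log2 fold change (old minus young on log2(value + 1)) was 0.27 ± 0.25 (SE), with a 95% confidence interval from -0.32 to 0.85 and an adjusted p of 0.430 in limma. Bgn encodes biglycan, decorin's close relative, which in soluble form also engages Toll-like receptors. Bgn stood at 7008, 6369.7 and 6817 in the young and at 6208, 7933 and 5506 in the old libraries (log2 fold change -0.06 ± 0.13, interval -0.36 to 0.25, limma adjusted p = 0.771). The old values again lay on both sides of the young ones, and the interval of Bgn was the narrowest of the 9. Aspn, the aspartate-rich relative that binds collagen and restrains TGF-beta, had counts of 179.6, 309 and 157 in the young group, and the old group gave 156, 227 and 189.5. With young 2 as the highest library and complete overlap, its log2 fold change was -0.12 ± 0.27 (interval -0.77 to 0.52, limma adjusted p = 0.751).

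Without old 3 Dcn passed as higher (log2 fold change 0.54, limma adjusted p = 0.0441), and without old 2 its value was -0.01 (0.987).

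The class II genes had no member past the threshold. Lum encodes lumican, a keratan sulfate proteoglycan known for the regular fibril spacing of the cornea. Lum counts were 3767, 3449 and 3614 for the young libraries and, for the old ones, 4631, 7146 and 3067 (log2 fold change 0.37 ± 0.27, interval -0.26 to 1.003, limma adjusted p = 0.315). Old 1 and old 2 exceeded every young library, and old 3 lay under all of them. Without old 3 Lum passed as higher (0.67, limma adjusted p = 0.0267), and without old 2 it was at 0.06 (0.801). Fmod encodes fibromodulin, which shares a collagen binding site with lumican and takes part in fibril crosslinking. It had the widest spread of the family in old nerves (SD of 55.8% of the mean), while Aspn was wider in young nerves (37.9% against 32.0%), with 8264, 4452 and 8441 counted in young nerves against 6917, 12147 and 3748 at the older age. The group means were nearly equal (7052 ± 2253 and 7604 ± 4241, SD). With 3 animals a group the interval from -1.01 to 1.02 includes changes of up to about 2.03-fold in both directions (limma adjusted p = 0.993).

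Prelp encodes prolargin, whose basic, heparin-binding end links collagen to basement membranes. Its counts were 4594, 4212 and 5679 (young) and 4749, 5745 and 3507 (old), with overlapping groups (log2 fold change -0.07 ± 0.19, interval -0.51 to 0.38, limma adjusted p = 0.811). Omd encodes osteomodulin, best known from bone, where it binds mineral and integrins. The young libraries held 578, 671 and 639.8 Omd counts and the old ones 1274, 1116 and 660.5. Old 1 and old 2 were clearly above the young libraries, and old 3 lay within their range. Its log2 fold change was 0.64 ± 0.23 (interval 0.09 to 1.18), and it missed the threshold (limma adjusted p = 0.0690). DESeq2 on the recovered reads gave an adjusted p of 0.0118 and the authors' deposited table an FDR of 0.0131, whereas edgeR gave 0.0509. Without old 3 it passed in limma (0.92, adjusted p = 0.00221), and with trends in transcript length and GC content removed its value was 0.22 (0.390).

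Ogn encodes osteoglycin, or mimecan, the class III member, which takes part in collagen fibril growth in many connective tissues. Its counts in replicates 1, 2 and 3 were 7500.2, 7065 and 7889.9 at the young age and 15776, 17804 and 8699.6 at the old age. All old libraries exceeded all young ones, although old 3 exceeded the highest young library by little and lay well under the other old libraries. The mean rose 1.88-fold, from 7485 ± 413 to 14093 ± 4779.8 (SD, n = 3), with a log2 fold change of 0.85 ± 0.25 (interval 0.27 to 1.43, limma adjusted p = 0.0352). It also passed with edgeR (0.0266) and DESeq2 (5.50e-04) and in the authors' deposited table (FDR 0.000566). After smooth trends in length and GC were taken out the value was 0.49 and did not pass (limma adjusted p = 0.116). It did not pass either without young 1, 2 or 3 (limma adjusted p = 0.0801, 0.106 and 0.0821), without old 1 (0.105), without old 2 (0.0858), or without both young 1 and old 2 (0.154), and without old 3 it was at 1.16 (0.00119). As background, the share of all genes that rose was 16.1% in edgeR, 18.6% in DESeq2, 16.8% by the authors' deposited FDR and 10.2% with the trends removed. It was 9.65%, 7.19% and 8.75% without young 1, 2 and 3, 9.59%, 11.3% and 17.2% without old 1, 2 and 3, and 5.25% without both young 1 and old 2.

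Chad encodes chondroadherin, a cartilage matrix protein that binds type II collagen and integrins. The young libraries held 854, 1069 and 982 counts and the old ones 523, 919 and 569.6. Old 1 and old 3 lay under every young library, and old 2 lay between young 1 and young 3. The mean went from 968 ± 109 to 670.5 ± 216, and the log2 fold change of -0.57 ± 0.21 (interval -1.07 to -0.07) missed the threshold (limma adjusted p = 0.0754). Without old 2 it fell by 0.82 on the log2 scale and passed (limma adjusted p = 0.0144). Removal of the length and GC trends gave -0.67 (0.0494). Without both young 1 and old 2 it also passed (-0.91, limma adjusted p = 0.0268). These were the only 3 of 18 alternatives in which Chad passed. Its limma adjusted p was 0.0936, 0.203 and 0.169 without young 1, 2 and 3, and 0.202 and 0.165 without old 1 and 3. In edgeR the adjusted p was 0.0958. The share of all genes that fell was 14.3% without old 2, 12.7% with the trends removed and 5.97% without both young 1 and old 2. The authors' deposited table has an FDR of 0.0561 for Chad.

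**Figure D2:**
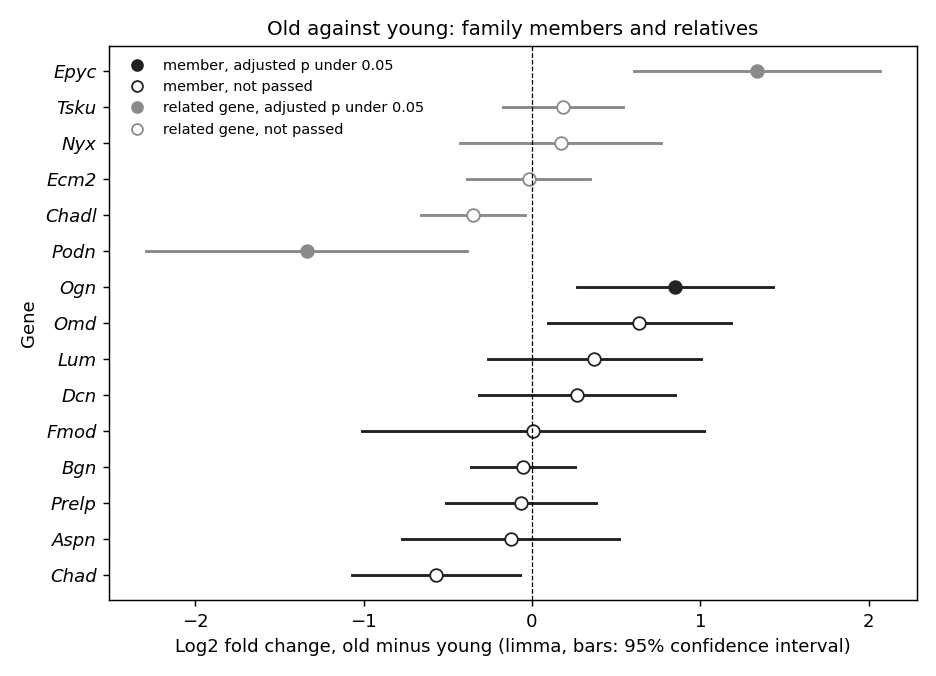
Log2 fold change (old minus young, limma) with its 95% confidence interval for the 9 members (black) and 6 tested relatives (grey), where filled points passed an adjusted p under 0.05. Ogn at 0.85 is the only filled member, and the intervals of Omd and Chad exclude 0 without passing after adjustment.

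The old libraries kept a similar order in most of the family. Old 2 was the highest old library in 8 of 9 members, all except Omd, and old 3 was the lowest in 7 of 9, all except Aspn and Chad. Across all tested genes old 2 was the highest old library in 27.1% and old 3 the lowest in 33.1%. Both held together in 6 of 9 members and in 15.5% of all tested genes. The ratio of old 2 to old 3 ran from 1.196 in Aspn to 3.24 in Fmod, with a median of 1.69, and the median over all tested genes was 0.979. Summed over the members, the counts of replicates 1, 2 and 3 were 58036, 49906 and 57626 for young and 68659, 94639 and 45466 for old nerves. Despite these shifts in the total, Dcn alone made up a similar part of the sum in each library, from 40.6% to 44.7%.

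**Figure D3:**
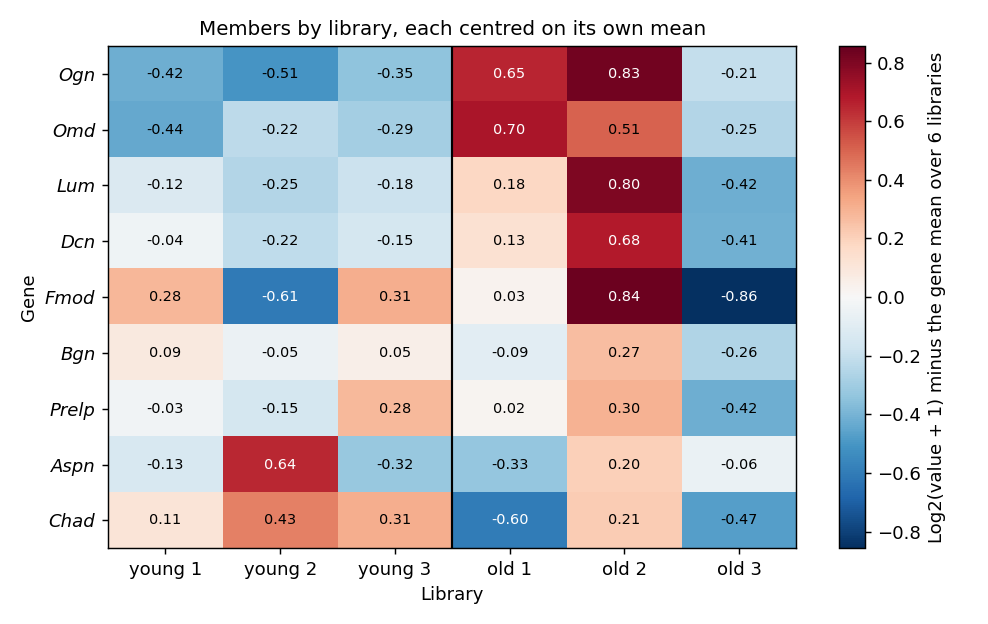
Log2(value + 1) of each member minus its mean over the 6 libraries, by library, with young libraries left and old libraries right of the black line. Red is above and blue below the gene's own mean. The old 2 column is above 0 in all 9 genes and the old 3 column is below 0 in all 9.

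Markers of sheath cells, bone cells and macrophages varied between the old libraries in much the same order. Of 9 meningeal and perineurial markers, 8 were highest in old 2 among old libraries, and their summed counts were 49436 (old 2) and 28258 (old 3) against 27860 to 33719 in young nerves. The transporter gene Slc22a6 was at 6622 in old 2 and 1767 in old 3, and Aldh1a2, which makes retinoic acid, at 7429.9 and 2562. All 11 osteoblast and osteocyte markers were highest in old 2, with sums of 3254, 4664 and 2825 in old 1, 2 and 3 against 5520.2 to 7253 in young nerves, and Bglap was listed at 0 in old 3. Of 10 macrophage markers 7 were highest in old 2 and 10 lowest in old 3 among old libraries. The part of these cells in the members' values was not tested. The summed counts of the 10 general fibroblast markers varied less (11977 to 14736 over the 6 libraries), and 4 of the 10 were highest in old 2 among old libraries. The sum does not show the spread of single markers, whose SD in old nerves ran from 8.31% of the mean (Abca8a) to 58.0% (Smoc2).

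Most of the family lies in 3 gene clusters, with positions given in mm10. Dcn (97479500 to 97518163) and Lum (97565501 to 97572703) lie on chromosome 10 with the class III relative Epyc (97644068 to 97681900). The 250 bases before the start of Kera, which had no row, lie between Lum and Epyc (97606955 to 97607204). On chromosome 13 stand Ecm2 (49504810 to 49532789), a related leucine-rich matrix gene, Aspn (49544443 to 49567562), Omd (49582747 to 49592609) and Ogn (49608071 to 49624500). Chromosome 1 holds Optc (133897194 to 133907999), Prelp (133910304 to 133921401) and Fmod (134037515 to 134048277). Bgn lies alone on chromosome X (73483601 to 73495936) and Chad on chromosome 11 (94565074 to 94569127). Aspn, Omd and Ogn sit inside the span of Cenpp, a centromere protein gene on the opposite strand, and Chad inside that of Acsf2. As the sources used here do not say whether reads were counted by strand, reads of such pairs cannot be told apart where exons overlap. Cenpp was at 21.6 to 61.7 and Acsf2 at 120.9 to 169.9 in all libraries.

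**Figure D4:**
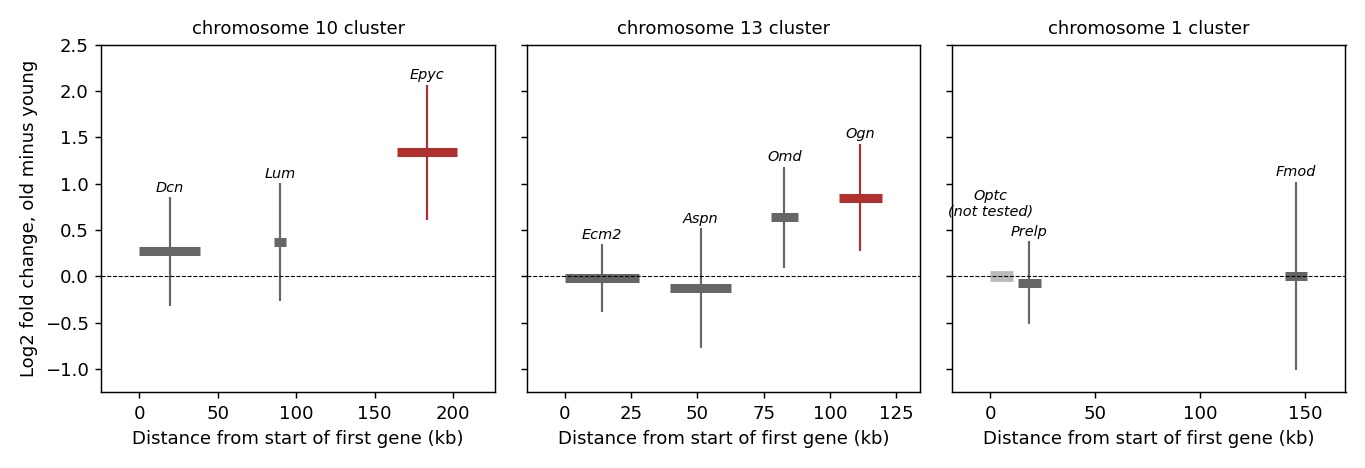
Log2 fold change (old minus young, limma) against the distance from the start of the first gene of each cluster, in kilobases. Thick bars span the genes, thin lines are 95% confidence intervals, red marks an adjusted p under 0.05 and Optc was not tested. Within the chromosome 13 cluster Ogn (0.85) and Omd (0.64) stand above Aspn (-0.12) and Ecm2 (-0.02).

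Neighbours did not share one value. On chromosome 13 the log2 fold changes were -0.02 for Ecm2, -0.12 for Aspn, 0.64 for Omd and 0.85 for Ogn, in their order along the chromosome. On chromosome 10 Dcn (0.27) and Lum (0.37) had similar values and Epyc a larger one. Epyc encodes epiphycan, a proteoglycan of growth cartilage that cochlear supporting cells also make. It rose from 7053 ± 2484 to 17795 ± 6479 (log2 fold change 1.34 ± 0.31, limma adjusted p = 0.0171). Young libraries had 4765, 6698 and 9695 counts and old ones 25262, 14460.2 and 13662.5. Epyc was thus highest in old 1 and did not follow the order of Dcn and Lum in the same cluster. The adjusted p for Epyc in limma was 0.0593 without young 2 and 0.0505 after removal of both trends. Without both young 1 and old 2 it was 0.0631, and with the replicate number as a block 0.0595. The differences between neighbours were not tested.

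Promoters of the chromosome 13 neighbours and of Chad are shown because Ogn and Omd, next to each other, had the highest fold changes of the family, Aspn in the same cluster did not, and Chad had the lowest. Each line gives the 250 bases before the RefSeq start (build GRCm38.p6), written 5′ to 3′ on the gene's strand. Capitals mark matches on either strand to 5 short motifs, and some matches overlap. The TATA box was searched as TATAAA and the GC box as GGGCGG. The AP-1 site was searched as TGANTCA, the RUNX core as TGTGGT and the CCAAT box by the letters of its name. RefSeq promoter entries were found for 8 of the 10 members, and none was found for Dcn and Lum.
Ogn, chr13:49607765-49608014, plus strand: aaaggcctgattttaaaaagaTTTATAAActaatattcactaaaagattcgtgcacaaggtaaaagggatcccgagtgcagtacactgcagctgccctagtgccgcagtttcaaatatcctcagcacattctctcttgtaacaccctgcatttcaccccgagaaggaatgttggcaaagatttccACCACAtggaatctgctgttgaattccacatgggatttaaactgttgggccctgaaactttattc
Omd, chr13:49582212-49582461, plus strand: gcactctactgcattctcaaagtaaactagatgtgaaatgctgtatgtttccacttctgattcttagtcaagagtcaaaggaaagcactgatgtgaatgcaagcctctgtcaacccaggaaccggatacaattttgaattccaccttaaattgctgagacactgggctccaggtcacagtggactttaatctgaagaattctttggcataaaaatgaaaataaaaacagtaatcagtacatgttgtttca
Aspn, chr13:49544193-49544442, plus strand: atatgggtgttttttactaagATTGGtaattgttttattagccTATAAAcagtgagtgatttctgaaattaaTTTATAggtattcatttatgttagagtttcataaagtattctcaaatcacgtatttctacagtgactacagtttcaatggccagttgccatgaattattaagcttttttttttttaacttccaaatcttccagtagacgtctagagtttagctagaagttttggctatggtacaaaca
Chad, chr11:94564797-94565046, plus strand: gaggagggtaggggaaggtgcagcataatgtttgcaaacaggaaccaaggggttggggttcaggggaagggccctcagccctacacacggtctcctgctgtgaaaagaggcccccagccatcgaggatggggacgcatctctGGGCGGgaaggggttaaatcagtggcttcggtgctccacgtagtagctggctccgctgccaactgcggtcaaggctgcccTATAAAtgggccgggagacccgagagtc

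The Chad promoter held a TATA box from 28 to 23 bases before the start and a GC box further upstream. In Ogn the TATA letters lay 229 to 222 bases before the start, with overlapping matches on both strands, and a RUNX core lay from 65 to 60 bases before it. Aspn held TATA letters more than 170 bases upstream and a CCAAT box, and Omd matched none of the 5 motifs. Of 32851 RefSeq promoters of this length 12.4% held the TATA letters on either strand, 33.8% the CCAAT box, 32.7% the GC box, 6.75% the AP-1 site and 14.05% the RUNX core. The GC content was 42.0% in Ogn, 38.4% in Omd, 30.0% in Aspn and 60.4% in Chad, with a median of 52.4% over all promoters.

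Relatives outside the 10 were taken from a list of 8. Of the 6 that could be tested Epyc rose, Podn fell, and Tsku (0.18), Nyx (0.17), Ecm2 (-0.02) and Chadl (-0.35) did not pass. Podn encodes podocan, which restrains smooth muscle cell growth. Its counts were 300.9, 163 and 146 (young) and 63.4, 131 and 52.2 (old), without overlap (log2 fold change -1.34 ± 0.41, limma adjusted p = 0.0403). It had adjusted p-values of 0.0509 in edgeR, 0.0700 with the trends removed in limma, and 0.108, 0.0833, 0.0629, 0.113 and 0.0925 in limma without young 1, young 2, young 3, old 1 and old 3. Optc and Podnl1 had too few reads to test.

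Many collagens that the family binds were lower in old nerves. Of 18 genes of fibrillar and fibril-associated collagens 10 fell and none rose, with a median log2 fold change of -0.73 and 18 of 18 below 0. Thus 55.6% of this list passed, against 34.6% of all genes. Osteoblast and osteocyte markers fell in 7 of 11 cases, with all 11 below 0 and a median of -1.13, and their part in the collagen values was not tested. Across all tested genes of known length, longer transcripts had lower fold changes (Spearman's rho of -0.382 across genes, which are not independent replicates). Col5a2, a chain that helps to start fibrils, fell from 2550.4 ± 30.1 to 1264 ± 161, and Col14a1, a fibril surface collagen, from 5484 ± 56.7 to 3069.8 ± 666. Col1a2 and Col2a1 fell by 1.65 and 1.84 on the log2 scale. Within the old libraries 13 of the 18 were highest in old 2 and 13 lowest in old 3, the order also seen in the members. Per library, the summed members divided by the summed collagens gave 0.636, 0.565 and 0.712 for the young libraries and 1.38, 1.54 and 1.01 for the old, without overlap. Dcn divided by Col1a2 gave 1.32, 1.299 and 1.46 in young against 6.51, 5.18 and 4.01 in old nerves. These ratios were chosen after the values were seen, do not depend on the scaling of libraries, and have no test. They were not computed with the length and GC trends removed, where the median log2 fold change was -0.41 for the collagens and 0.04 for the members. Among single tested genes 51.8% did not overlap between the ages, and no such share was computed for ratios. After removal of both trends 5 collagens fell and 2 rose (Col16a1 and Col5a3), and 5 fell without young 2. Of all genes 12.7% fell and 10.2% rose with the trends removed, and 8.87% fell without young 2.

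**Figure D5:**
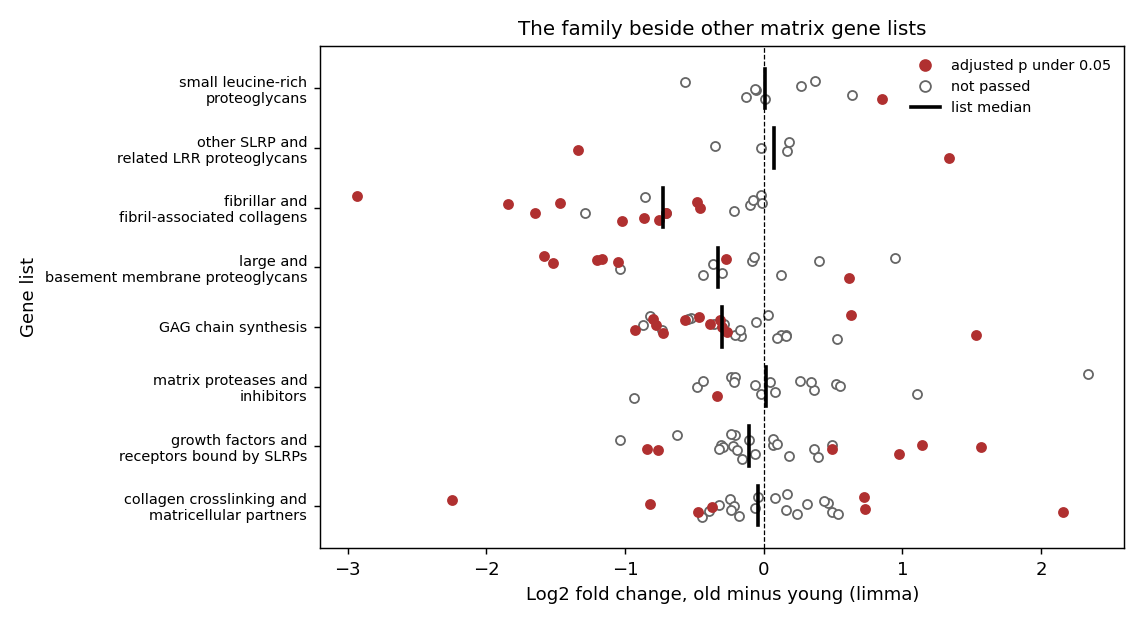
Log2 fold change (old minus young, limma) of each tested gene, for the family and 7 lists of matrix genes. Red points passed an adjusted p under 0.05, open points did not, and black bars are list medians. The family's median is 0.01 and that of the collagens -0.73.

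Enzymes that build the sugar chains moved in both directions. Of 29 genes 10 fell and 2 rose, with a median of -0.30, so 41.4% passed, against 34.6% of all genes. Chpf and Chsy1, subunits of the chondroitin polymerase, fell from 3957 ± 70.4 to 2107 ± 404 and from 889.6 ± 53.5 to 537 ± 43.8. Chst12, a chondroitin sulfotransferase, fell from 697 ± 14.8 to 409.8 ± 64.6, and Chst2, a sulfotransferase that acts on N-acetylglucosamine, from 6553 ± 891 to 3761 ± 423. The rises were of Papss2, which makes the sulfate donor (718 ± 105 to 2188 ± 828), and B4galt4, a galactosyltransferase of keratan sulfate (1758 ± 262 to 2752 ± 699). With the trends removed 5 fell and 2 rose, and B4galt4 was no longer among them while Dse, which converts chondroitin to dermatan sulfate, was. The count that fell was 6 without old 1, where 13.6% of all genes fell. B4galt4 passed without old 3 but with no other single library left out (limma adjusted p = 0.0540 to 0.104).

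Large and basement membrane proteoglycans fell in 6 of 16 cases with 1 rise (median -0.33), so 43.8% passed, against 34.6% of all genes. Beside the neuron markers given above, 5 of 10 Schwann cell markers fell and 1 rose, and the part of these cells was not tested. Of these Schwann cell markers 3 fell and 2 rose with the trends removed, and 2 fell and 1 rose without both young 1 and old 2. Hspg2, perlecan of basement membranes, fell from 8768 ± 324 to 4223 ± 184, Acan (aggrecan) by 1.59 on the log2 scale, and Hapln4, a link protein of perineuronal matrix, by 1.17. Spock2 (testican-2) fell to 0.447 times its young mean. Srgn, serglycin of leukocyte granules, rose from 2484 ± 231 to 3829 ± 679. With the trends removed 4 proteoglycan genes fell (Acan, Hapln4, Prg4 and Spock2) and none rose, and Hspg2 was at -0.22 and did not pass (limma adjusted p = 0.107). Srgn missed the threshold without young 1 (limma adjusted p = 0.0524) and without young 2 (0.0505), as did Hapln4 without young 2 (0.0555). Of 18 matrix proteases and inhibitors 1 passed, Adamts5, an aggrecanase, which was lower (log2 fold change -0.34 ± 0.09, limma adjusted p = 0.0245). Adamts5 did not pass without young 2 (limma adjusted p = 0.0658), without old 1 (0.0606) or with the trends removed (0.646), and with them removed Adamts9 (0.39) and Timp3 (0.42) rose.

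Growth factors and receptors that family members bind rose in 4 and fell in 2 of 25 cases (median -0.11), so 24.0% passed, below the 34.6% of all genes. Tlr2 and Cd14, innate immune receptors engaged by soluble biglycan, rose from 146 ± 24.7 to 439 ± 95.8 and from 213 ± 12.3 to 483 ± 139. Both are also expressed by macrophages, of which all 10 listed markers rose, with sums of 4931 to 6351 in young and 14072 to 20682 in old nerves, and the part of these cells was not tested. Met, a growth factor receptor to which decorin binds, rose by a log2 fold change of 0.49 ± 0.13. Ctgf, a matricellular growth factor, rose by 0.97 ± 0.26. Lrp1, an endocytic receptor for decorin, fell from 30478 ± 871 to 17978 ± 1183, and the morphogen gene Bmp2 fell by 0.84 on the log2 scale. None of the TGF-beta genes (Tgfb1, Tgfb2, Tgfb3) or their receptors on the list passed. Met and Ctgf passed without old 3 but with no other single library left out (limma adjusted p = 0.0612 to 0.0798 for Met and 0.0640 to 0.0873 for Ctgf), and Bmp2 did not pass without young 2 (0.0524). With the trends removed Lrp1 had an adjusted p of 0.780 in limma. Without old 3 the rises numbered 9, without old 1 they numbered 2, and the falls numbered 5 without old 2. Of all genes 17.2% rose without old 3, 9.59% rose without old 1 and 14.3% fell without old 2.

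Crosslinking and matricellular genes moved in both directions, with 3 rises and 4 falls among 25 (median -0.04), and the 28% that passed was also below the 34.6% of all genes. Lox, the enzyme that crosslinks collagen, rose from 2349 ± 429 to 3869 ± 677, and Fbln5, which assembles elastic fibres, from 1195 ± 113 to 2008 ± 413. Postn (periostin) rose by a log2 fold change of 2.16 ± 0.24. The falls were of Fbn1 (fibrillin), Fbln2, Plod1 and Tnc, and Plod1 alone fell with the trends removed, where Eln joined the rises. Lox did not pass without old 1 (limma adjusted p = 0.0515), nor Fbln2 without young 2 (0.0519) or young 3 (0.0516), nor Plod1 without young 2 (0.0576). Tnc did not pass in edgeR (adjusted p = 0.0641) and in limma passed with old 2 left out but no other single library (0.0763 to 0.110). Without young 2, 1 gene of the list fell, and without old 2 the falls numbered 8. Of all genes 8.87% fell without young 2 and 14.3% without old 2.

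The genes with a profile most like that of Ogn were sought among 13260 tested genes with a mean count of at least 100. The measure was the root mean square difference of log2(value + 1), each gene centred on its mean, over the 6 libraries. Casp12, an inflammatory caspase, was the nearest (0.10), followed by Serping1, the C1 inhibitor of the complement system (0.11), and Gbp2, an interferon-induced guanylate-binding protein (0.12). Mean counts in young and old nerves were 238 ± 22.2 and 473 ± 138 for Casp12, 4657 ± 283 and 7994 ± 2664 for Serping1, and 572 ± 55.6 and 983 ± 390.2 for Gbp2 (SD, n = 3). These genes were chosen for their likeness to Ogn over the same libraries, so their difference between ages is a description with no test.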

How the data were processed

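Per the labels' protocols, a miRNeasy kit gave the total RNA and a TruSeq RNA kit the libraries. TopHat2, Partek and DESeq2 were used on build mm10, per the submitters' processing notes, with versions and annotation not given in the sources used here. All 6 sample columns hold a signal, read counts divided by 1 size factor per library by the authors, as the deposited values show. Dividing by the value of 1 read (0.940 to 1.10) gave whole reads within 0.1 for 99.925% to 99.971% of values above 0. The deposited p-values come from the authors, per the file headers, and their fold change, a signed score, writes a fall as the negative inverse. Gene ends are printed 1 base below the stop in the deposited table.

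Genes kept by edgeR's filterByExpr on recovered reads (minimum count 10, minimum total 15) were tested with limma (3.58.1) on log2(value + 1), trended variances, two-sided, with Benjamini-Hochberg adjustment over all 15882 genes and a threshold of 0.05. An exact permutation test of 3 against 3 cannot go below p = 0.1. Alternatives were edgeR (4.0.16), DESeq2 (1.42.0), the authors' own FDR, other scalings, filters and pseudocounts (0.5 and 5), the replicate number as a block, libraries left out, and smooth length and GC trends removed (mgcv 1.9.3; GENCODE M21, 93.8% of genes with a length). Libraries of the same replicate number came from different mice and their deviations did not go together (correlations across genes of -0.291, -0.412 and -0.0499), so the number was not treated as pairing. The highest correlation was between young 1 and old 2 (0.396), and both were also left out together. Replicates differed by more than read sampling gives (chi-square divided by its degrees of freedom, 18.9 to 66.2). Members and gene lists were chosen with earlier results of these data known. Named genes were all members, up to 4 genes with the smallest p among those passing in each list, genes making up a count of 5 or fewer, cluster neighbours, and the 3 profiles nearest to a passing member. Further genes named beside a list were chosen after their values were seen. Ccn2 and Snorc were found under older symbols (Ctgf and 3110079O15Rik), and Matn3 was not analysed here. The steps were also run on simulated counts with equal spread set for both groups. That run does not cover the wider spread of most members in old nerves.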

Additional observations from a re-analysis of the deposited data

How the results depend on the processing

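Over 18 alternatives Ogn passed in 10 and kept its direction in all of them (log2 fold change 0.49 to 1.16). That count does not measure robustness, because several alternatives are near copies. Other pseudocounts and filters refit nearly the same values (limma adjusted p = 0.0350 to 0.0358), and DESeq2 and the authors' FDR share a method. Among fits with libraries left out, the replicate block or trends removed, Ogn passed only without old 3. Members that rose numbered 2 with DESeq2 and in the authors' deposited FDR (Ogn and Omd) and 0 with the replicate block, with the length and GC trends removed and without both young 1 and old 2. Leaving out 1 library gave 0 to 4 rises (4 without old 3, namely Dcn, Lum, Omd and Ogn, with 17.2% of all genes higher) and 0 to 1 falls (Chad, without old 2). Chad made 1 fall with the trends removed and 1 without both young 1 and old 2. Of all genes 1078 rose and 1633 fell with the replicate block, 1520 rose and 1888 fell with the trends removed, and 831 rose and 945 fell without both young 1 and old 2. Leaving out 1 library gave 1159 to 2757 rises and 1430 to 3360 falls. Upper-quartile scaling gave 3439 rises and 2338 falls against 2524 and 2969, and moved the median log2 fold change of all genes by 0.08. With the replicate block, which the labels do not support as pairing, Ogn had an adjusted p of 0.0649 in limma. Signs changed in 14 of 162 fits of a member, in 5 members, never with a call. Per-kilobase levels from mean transcript lengths were 21294 (Dcn), 3326 (Bgn) and 4013 (Fmod), and Fmod then stood above Bgn. With 3 animals a group the intervals of 6 of the 8 members that did not pass, all except Bgn and Prelp, include changes beyond 1.5-fold.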
